A study of Mus musculus with 6 samples.

Results

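The cells described here were retinal cells chosen by their UMI counts, with 1 or more UMIs of *Prdm1* and of *Otx2* and no UMI of 9 genes that mark rods (*Nr2e3*, *Cnga1*), cones (*Gnat2*), neurogenic precursors (*Dll3*, *Gadd45g*, *Mybl1*, *Olig2*), amacrine and horizontal cells (*Tfap2b*) or dividing cells (*Mki67*). A UMI is a barcode that counts 1 captured RNA molecule once. The gate was applied to the barcodes of 4 postnatal libraries with 300 to 6000 detected genes and at most 15% mitochondrial UMIs. It took 723 of 39423 such postnatal cells, from a series with 57690 such cells in 6 libraries. Because measured counts chose the cells, their levels of the 11 gate genes are given as a description and no test rests on them. The cells are called *Prdm1*-positive, *Nr2e3*-negative precursors below. Their working name was late photoreceptor precursors, and as the values below show, rod genes that come on late were low in them while *Neurod4* was high, so "late" is not used.

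*Prdm1*, also called Blimp1, encodes a zinc finger transcriptional repressor that is switched on downstream of *Otx2* in newborn retinal neurons, where it favours photoreceptor over bipolar cell identity. *Otx2* and its target *Crx* encode homeobox factors needed for photoreceptor identity, and *Otx2* is also used by bipolar cells. *Nrl* and its target *Nr2e3* then direct a precursor to the rod identity and repress cone genes, whereas *Thrb* and *Rxrg* act in cones.

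The study profiled dissociated neurosensory retinas of wild type C57BL/6J mice, pooled at each age, as single cells, to describe photoreceptor precursors around birth. Live cells were sorted as DAPI-negative singlets, with no marker, before droplet capture. The postnatal groups used here are postnatal day 0 (P0, 1 library), P3 (2 libraries, replicates 1 and 2) and P6 (1 library), none of them with a transgene or a treatment. With 1 library at P0 and at P6, no test between ages was run, and values by age are descriptions of these libraries. The 4 libraries held 32624738 to 67585688 UMIs over all barcodes and a median of 4003.5 to 6010 UMIs a kept cell. P3 replicate 2 stood apart, with 3113 kept cells against 10407 to 13600 in the others, and an older annotation. The libraries of a pair shared 0 to 45 cell barcodes, and no barcode of a precursor was among them.

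Promoter sequence is shown for *Prdm1*, which defines the cells, for *Crx*, the photoreceptor regulator most of them express, and for *Gngt1*, a rod transducin subunit that was low in them. Each run is the 250 bases before the start that RefSeq lists for the gene on GRCm38.p6, 5′ to 3′ on the strand of the gene. They lie at chr10:44458749-44458998 (minus strand), chr7:15879956-15880205 (minus strand) and chr6:3993758-3994007 (plus strand). Capitals mark, on either strand, TAATCC (which reads GGATTA on the other strand), the letters that OTX2 and CRX are known to bind, and AGNGAAAG, the core letters of the PRDM1 motif. The 2 motifs do not overlap in these windows.
Prdm1: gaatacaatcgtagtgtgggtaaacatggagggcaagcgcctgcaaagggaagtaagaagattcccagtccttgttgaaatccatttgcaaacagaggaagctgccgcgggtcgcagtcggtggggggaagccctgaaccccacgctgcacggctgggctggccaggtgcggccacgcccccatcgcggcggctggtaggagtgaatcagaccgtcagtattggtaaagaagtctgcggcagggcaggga
Crx: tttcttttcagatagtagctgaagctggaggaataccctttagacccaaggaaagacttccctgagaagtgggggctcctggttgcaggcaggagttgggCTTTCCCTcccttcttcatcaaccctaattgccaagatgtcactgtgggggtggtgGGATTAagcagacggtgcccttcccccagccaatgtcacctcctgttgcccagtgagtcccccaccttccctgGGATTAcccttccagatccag
Gngt1: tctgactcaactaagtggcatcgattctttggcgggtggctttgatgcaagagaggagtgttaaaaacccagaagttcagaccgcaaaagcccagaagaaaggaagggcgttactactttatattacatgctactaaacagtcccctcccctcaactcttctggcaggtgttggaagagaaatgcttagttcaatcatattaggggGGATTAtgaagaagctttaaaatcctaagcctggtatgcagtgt
The *Crx* window held 2 matches to TAATCC, 89 and 16 bases before the start, and 1 to AGNGAAAG, 143 bases before it, all on the strand opposite to the gene. The *Gngt1* window held 1 TAATCC match, 39 bases before the start, and the *Prdm1* window held neither motif. Of 32851 mouse windows of this length, 2054 (6.25%) held TAATCC and 2398 (7.30%) held AGNGAAAG. A match is a run of letters and not a measured binding site.

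The precursors made up 0.932% of kept P0 cells (97 of 10407, exact Clopper-Pearson 95% interval 0.756 to 1.14) and 2.56% of P6 cells (348 of 13600, 2.30 to 2.84). Of the P3 libraries, replicate 1 held 2.19% (270 of 12303, 1.94 to 2.47) and replicate 2 held 0.257% (8 of 3113, 0.111 to 0.506). Intervals cover counting error only. The interval at P0 lay below those of P3 replicate 1 and P6, which overlapped, and the 2 P3 libraries were further apart than P3 replicate 1 and P6 were. With each cell thinned to 2000 UMIs the shares were 1.56% for P0, 2.64% and 1.38% for the P3 replicates and 2.86% for P6, so the distance of P3 replicate 2 from the others shrank when depth was levelled. Thinning dropped cells under 2000 UMIs. It left 10131 P0 cells, 11071 and 3113 cells of the P3 replicates and 11726 P6 cells, so the sets of cells differ from those above except in P3 replicate 2. A gate that asks for 0 UMIs depends on depth, and the median of *Prdm1*-positive, *Otx2*-positive cells was 10764.5 UMIs in P3 replicate 2 against 3519 to 5211 in the others. The plot of shares by library shows both sets, and the shares where 2 or more *Prdm1* UMIs were asked for.

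**Figure D1:**
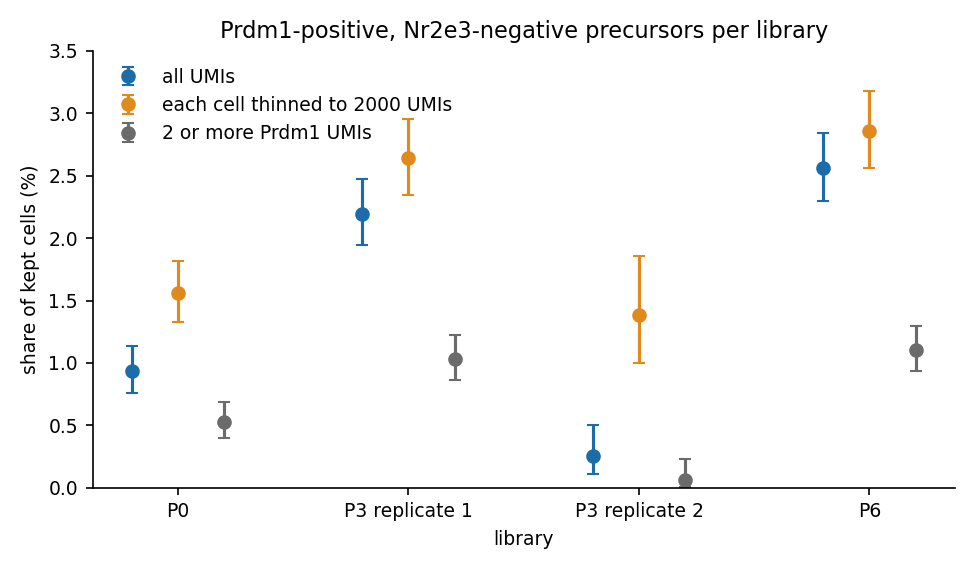
Share of kept cells (percent) that were *Prdm1*-positive, *Nr2e3*-negative precursors in each postnatal library, at the depth sequenced and after thinning each cell to 2000 UMIs (cells under 2000 UMIs dropped), with exact 95% intervals. The remaining points, with intervals of the same kind, ask for 2 or more *Prdm1* UMIs at the depth sequenced. P3 replicate 2 is lowest in every set, at 0.257%, 1.38% and 0.0642%, and P6 is highest, at 2.56%, 2.86% and 1.10%.

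Before the 9 excluded genes were applied, *Prdm1* and *Otx2* were detected together in 1431 P0 cells, 3052 and 1206 cells of the first and second P3 libraries, and 3867 P6 cells. Of these the precursors were 6.78% at P0, 8.85% and 0.663% in the P3 libraries, and 348 cells at P6. *Nr2e3*, the rod nuclear receptor, was present in 23.5% of the double-positive P0 cells, 49.6% and 90.7% of those of the P3 replicates and 68.6% of the P6 ones, and it alone removed 137, 665, 39 and 1255 cells. *Gadd45g*, a stress and growth arrest gene of newborn neurons, was present in 47.0%, 40.2%, 70.3% and 32.8%, *Dll3*, a Notch ligand family member, in 42.4%, 25.6%, 28.4% and 16.6%, and *Mki67* in 34.2%, 13.0%, 61.8% and 6.15%. Among the 3 libraries other than P3 replicate 2, the share with the rod gene was thus highest at P6 and the shares with neurogenic and dividing-cell genes were highest at P0.

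The gate had a narrow edge. Of the precursors, 42 of 97 P0 cells, 143 of 270 and 6 of 8 cells of the P3 replicates, and 198 of 348 P6 cells carried exactly 1 *Prdm1* UMI. Just outside, 158, 297, 11 and 275 cells were left out for a single UMI of 1 excluded gene, including 29, 77, 3 and 124 for 1 *Nr2e3* UMI. Precursors with 1 *Prdm1* UMI held 374 CPM of *Crx* at P0, against 344 in those with 2 or more. CPM is the UMIs of a gene scaled to a common total of the cells summed. The same values were 457 against 497 CPM for P3 replicate 1 and 484 against 597 for P6. *Neurod4* stood at 1093, 2239 and 1738 CPM in the first set and 1085, 2673 and 2083 in the second. All cells left out for a single UMI of 1 excluded gene held like levels, 1052, 2480 and 1761 CPM of *Neurod4* and 365, 451 and 470 CPM of *Crx*. High *Neurod4* was thus not particular to the precursors. The cells left out for 1 *Nr2e3* UMI alone had 418, 773 and 656 CPM of *Nrl*, the rod leucine zipper factor, and 455, 2009 and 1473 CPM of *Neurod4*. Both sides of the *Nr2e3* edge therefore carried *Neurod4* and *Nrl*. At the *Prdm1* edge, cells with no *Prdm1* UMI held 262, 1235 and 656 CPM of *Neurod4* and 93.3, 243 and 223 CPM of *Nrl*. At the *Otx2* edge, the 52, 20 and 24 cells with no *Otx2* UMI held 32.7, 36.3 and 148 CPM of *Neurod4* and 24.5, 0 and 26.1 CPM of *Nrl*, against 193, 852 and 896 CPM and 155, 44.8 and 343 CPM in the 10, 9 and 16 precursors with exactly 1 *Otx2* UMI. Both genes were thus low outside the *Otx2* edge in these 3 libraries.

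The gate fixed the presence of *Prdm1* and *Otx2*, so of the photoreceptor markers only *Crx*, which it did not use, checks the identity of the cells. *Prdm1* stood at 611 CPM in the P0 precursors, 610.5 and 279 CPM in those of the P3 replicates and 560 CPM in the P6 ones, and at 49.5, 91.5, 112 and 108 CPM in all other kept cells. *Otx2* stood at 1560, 2732, 355 and 2690 CPM. *Crx* was detected in 67.0%, 74.1%, 25.0% and 74.4% of precursors. Most precursors of 3 libraries thus carried *Crx*, and P3 replicate 2 did not follow them.

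Amacrine cells, which should lack photoreceptor genes, serve as a rough guide to the level that RNA free in the droplets can add. They were taken as cells with *Tfap2b* and with *Gad1* or *Slc6a9*, 650, 442, 455 and 199 cells in the order P0, P3 replicate 1, P3 replicate 2 and P6, with medians of 6334, 5584, 10356 and 5553 UMIs. *Prdm1* was detected in 5.69%, 18.1%, 45.5% and 24.6% of them, and *Crx* in 6.00%, 28.3% and 39.2% with P3 replicate 2 left aside. The precursors were shallower, at medians of 3193, 2737.5, 4659 and 2914.5 UMIs. With all cells thinned to 2000 UMIs, *Crx* was detected in 50.6% of precursors and 2.96% of amacrine cells at P0, 59.8% and 18.7% in P3 replicate 1, and 60.8% and 25.3% at P6. *Crx* thus lay above the amacrine share in each of these 3 libraries. Summed amacrine markers of the amacrine set stood at 3755 CPM at P0 and 3808 CPM in P3 replicate 1. The other kept cells there held 1557 and 1050 CPM. In P3 replicate 2 the values were closer, at 1785 and 1330 CPM. The amacrine set of that library is thus a weak guide to free RNA.

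The 8 cells of P3 replicate 2 did not carry the marker set. They held 2 *Crx* UMIs in all, 7 of 8 had *Pax6*, and their summed ganglion cell markers reached 5147 CPM, against 91.3 to 174.5 CPM in the precursors of the other libraries and 1298 CPM in the other kept cells of the same library. *Sncg*, a ganglion cell gene, was at 2104 CPM in them. As given above, 45.5% of the cells taken as amacrine in that library also had a *Prdm1* UMI, though that set was poorly separated by its markers. The 8 cells are under the minimum of 20 cells for a sum, so P3 replicate 2 entered no main test, and the values that follow are of P0, P3 replicate 1 and P6 in this order.

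Among transcription factors of the photoreceptor lineage, *Neurod4*, a proneural bHLH factor, was abundant in the precursors. It stood at 1088, 2450 and 1890 CPM in the precursors and at 123, 575 and 553 CPM in all other kept cells. After thinning to 2000 UMIs it was detected in 64.7%, 92.7% and 91.7% of precursors and 6.55%, 28.2% and 46.2% of amacrine cells. *Neurod1*, a bHLH factor that photoreceptors keep, stood at 2125, 3425 and 2629 CPM against 315, 1127 and 1287. *Crx* stood at 357 CPM (exact Poisson 95% interval 295 to 427), 476 (430 to 526) and 534 (491 to 579) in the precursors, against 33.5, 156 and 288. For these 3 genes the precursors were above the other kept cells in each library. *Crx* in the other kept cells was itself higher at P6 than at P0, so the ratio was largest at P0.

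*Nrl* behaved differently. It stood at 275, 453 and 477 CPM in the precursors and 28.5, 217 and 480 CPM in the other kept cells, so that it was higher in the precursors of the first 2 libraries and at nearly the same level at P6. Its thinned share was 32.9%, 48.3% and 50.2% in precursors, 1.72%, 20.1% and 31.7% in amacrine cells and 79.1%, 88.4% and 91.8% in *Nr2e3*-positive counterparts, described below. *Nrl* was thus present above the amacrine share in cells that were chosen to lack *Nr2e3*, at a lower share than in the cells that had it.

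Products of mature rods were below the amacrine level at P6 and in P3 replicate 1, but not all of them at P0. With P6 cells at 2000 UMIs, *Gngt1* was detected in 5.65% of precursors, 25.8% of amacrine cells and 53.2% of *Nr2e3*-positive counterparts. The same shares were 11.0%, 28.0% and 64.2% for *Sag*, the arrestin of rods. A share under that of the amacrine cells was not taken as evidence of expression. The gate barred *Nr2e3* and *Cnga1* in the precursors and not in the amacrine cells, and doublets stayed in both. The amacrine share is therefore no exact measure of free RNA in the precursors. The precursors were below the amacrine cells for both genes at P6, and also in P3 replicate 1, at 3.42% against 11.7% for *Gngt1* and 3.42% against 14.8% for *Sag*. At P0 the shares were low on both sides, at 2.35% against 0.156% for *Gngt1* and 1.18% against 2.03% for *Sag*, with intervals that overlapped. *Pde6g*, a subunit of the rod phosphodiesterase, was above the amacrine share at P0 (10.6% against 1.09%) and below it at P6 (2.99% against 23.1%).

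**Figure D2:**
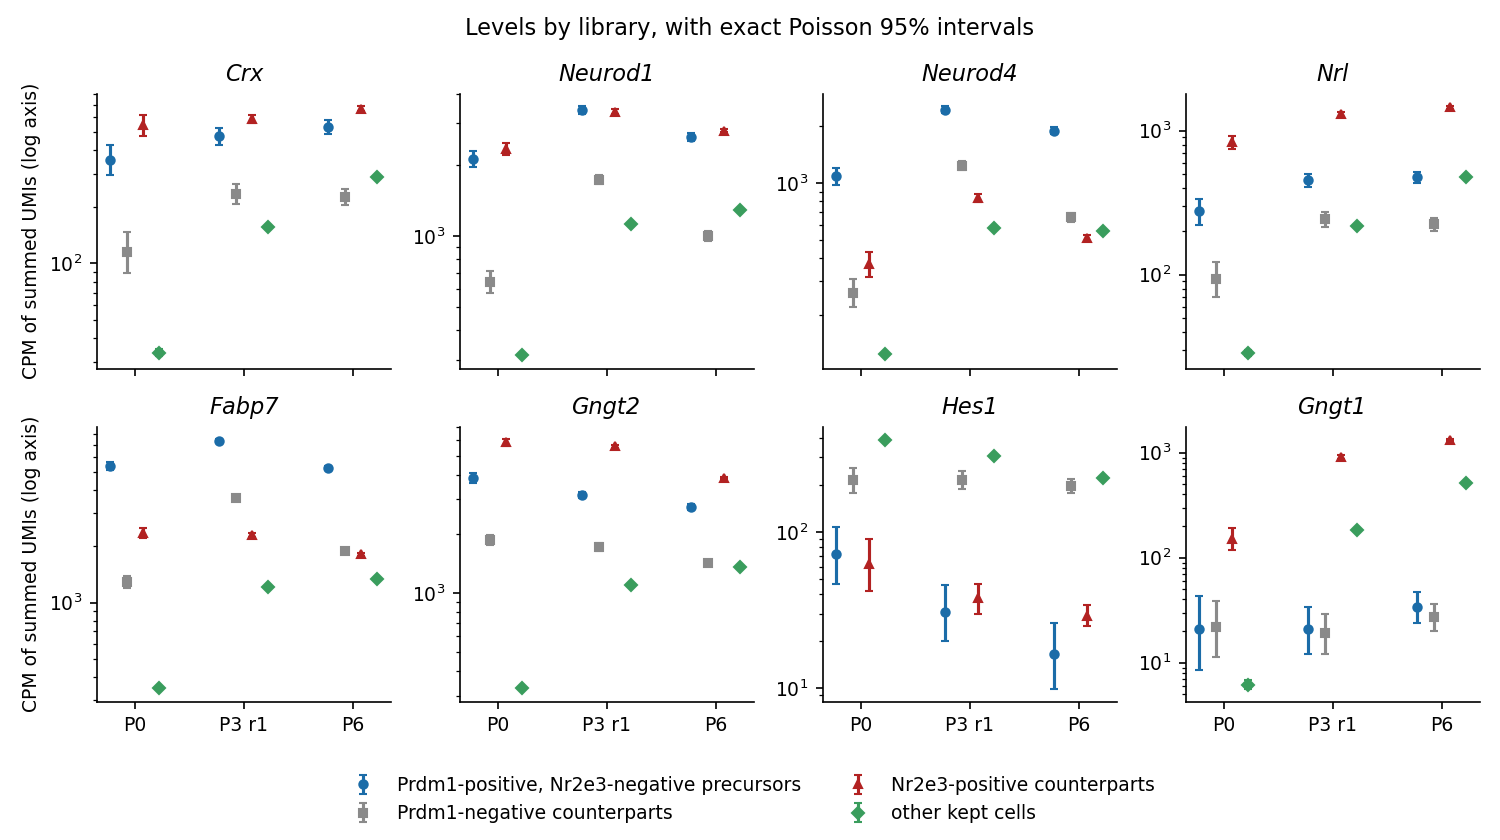
Level of marker genes (CPM, log axis) in the precursors, the *Prdm1*-negative and *Nr2e3*-positive counterparts and all other kept cells of P0, P3 replicate 1 and P6, with exact Poisson 95% intervals. Of the groups shown, *Neurod4* is highest in the precursors in each library, at 1088, 2450 and 1890 CPM.

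To ask what else marked the precursors, their summed counts were tested against all other kept cells of the same library with edgeR's quasi-likelihood test, which took each library as its own block, and Benjamini-Hochberg adjustment over all genes. Higher in the precursors were 901 of 13893 genes (6.49% of all genes tested) and lower were 1701 (12.2%), 18.7% in all. Of 18 photoreceptor transcription factors tested, 10 were higher and 1 was lower, with a median log2 fold change of 0.86 against -0.11 over all genes. *Crx* had a log2 fold change of 1.90 ± 0.34 (SE; adjusted p = 0.0022), *Neurod1* one of 1.78 ± 0.23, and *Insm2*, a zinc finger gene of newborn neurons, one of 2.31 ± 0.18. *Casz1*, a zinc finger factor that acts in late progenitors and rods, was higher by 1.31 ± 0.17, and *Onecut1*, a factor of early cone and horizontal cell precursors, by 2.17 ± 0.31. *Lmo4*, a LIM-only cofactor, was the 1 lower factor. *Nrl* was just past the threshold (1.32 ± 0.42, adjusted p = 0.0498 by edgeR's quasi-likelihood test), higher in 2 of 3 libraries, and among cells that all had a *Crx* UMI it stood at -0.20 and not past the threshold. *Neurod4*, on the list of early neurogenic genes, was higher by 2.32 ± 0.20 (adjusted p = 1.5e-05 by the same test).

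Genes that act downstream of these factors were split by class. Of 14 rod genes 1 was higher, *Nrl*, and 7 were lower, with a median of -1.95 (-1.57 with genes at 0 UMIs set to their bound, against -0.06 over all genes). *Sag* differed by a log2 fold change of -3.35 ± 0.35 and *Gngt1* by -3.15 ± 0.56, the last higher at P0, lower in the other 2 libraries and not past the threshold with DESeq2 (-2.13). Of 11 cone genes 3 were higher and 1 was lower (median 1.01). The higher ones were *Gngt2* (2.00 ± 0.35) and *Gnb3* (2.08 ± 0.31), subunits of cone transducin, and *Cngb3*, a cone channel subunit. Of 22 genes that rods and cones share 3 were higher and 4 were lower (median -0.08), the higher ones being *Abca4*, the retinoid transporter of outer segments (2.55 ± 0.24), *Unc119* (1.36 ± 0.30), which carries lipid-bound proteins such as transducin, and *Rbp3*, the retinoid-binding protein between photoreceptors and the pigment epithelium. Of 14 photoreceptor synapse genes 6 were higher and none was lower (median 0.49), among them *Snap25*, a vesicle fusion protein (1.35 ± 0.27). Among cells that all had a *Crx* UMI, *Unc119* stood at 0.05 and *Snap25* at 0.16, not past the threshold (edgeR adjusted p = 0.87 and 0.53), and *Onecut1*, given above, at 0.92 (adjusted p = 0.091). Most rod genes that passed the test were thus lower and most cone genes that passed were higher. Other cone genes differed by library. *Opn1sw*, *Pde6h*, *Pde6c*, *Thrb* and *Rxrg* were higher than in the other kept cells at P0 and lower at P6, by exact Poisson intervals that did not overlap. *Pde6h* stood at 124 against 12.8 CPM at P0 and at 2.77 against 108 CPM at P6. The gate itself had excluded cells with *Cnga1*, *Nr2e3* or *Gnat2*.

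Progenitor genes were low. All 15 cell cycle genes tested were lower (median -4.28), as were 13 of 14 progenitor and Notch genes (median -2.34), with none higher. *Cenpf* and *Top2a*, used in mitosis, differed by -5.80 ± 0.22 and -4.85 ± 0.18, *Ccnd1*, the cyclin of retinal progenitors, by -3.11 ± 0.22, *Hes1*, a Notch effector, by -3.16 ± 0.22 and *Pax6* by -2.39 ± 0.15. *Nuf2* and *Kif2c*, with 0 UMIs in the precursors, were at least 29.4-fold and 20.1-fold lower, taking 3 counts over the 3 libraries as the limit. Cells with *Mki67*, *Dll3*, *Gadd45g*, *Mybl1* or *Olig2* had been gated out, so low cell cycle and neurogenic genes follow in part from the choice of cells. Of 12 early neurogenic genes 3 were higher, *Neurod4*, *Btg2* and *Insm1*, and 5 were lower.

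The genes with the largest folds included several on none of the photoreceptor gene lists. Of those given here, *Tmem158* and *Fabp7* are on the lists of the study's late and intermediate groups, described below. *Slitrk6*, a synaptic adhesion protein, had a log2 fold change of 3.13 ± 0.34, *Angpt1*, an angiopoietin, 3.04 ± 0.30, *Inhbb*, an inhibin and activin subunit, 2.76 ± 0.29, and *Tmem158* 2.78 ± 0.20. *Tmem158* stood at 414, 471 and 426 CPM in the precursors and 36.2, 78.9 and 85.2 CPM in the other kept cells. *Fabp7*, a brain fatty acid binding protein, was higher by 2.82 ± 0.27 and was among the most abundant of the listed RNAs, at 5401, 7318 and 5257 CPM against 348, 1217 and 1344. These 5 genes were higher in the precursors of all 3 libraries.

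Lists of other cell types bear on how pure the cells were, within what the gate allowed. The gate had removed cells with *Tfap2b* and required *Otx2*, so low markers of other cell types follow in part from that choice. None of 10 ganglion markers was higher and 7 were lower, and none of 8 Müller glia markers was higher and 6 were lower (median -1.78), with *Rlbp1*, the retinaldehyde-binding protein of these glia, at -2.19 ± 0.27. *Apoe*, the apolipoprotein of these glia, went the other way in 2 libraries, at 952, 698 and 869 CPM against 214, 483 and 1062, and the summed Müller glia markers were at 1215, 958 and 1148 CPM against 1035, 1416 and 2245. Their part in the results was not tested. Of 13 bipolar genes 5 were higher and 2 were lower. Of the higher ones *Lhx4* (2.41 ± 0.29) is also used in photoreceptor precursors and *Pcp2* (2.66 ± 0.34) marks ON bipolar cells. *Pcp2* was in 9.41%, 12.4% and 12.6% of thinned precursors and 12.2%, 11.7% and 11.4% of thinned *Nr2e3*-positive counterparts. Of 12 amacrine markers 7 were lower and 1 was higher, *Meis2*, a homeobox gene (1.36 ± 0.27), at 490, 1413 and 1033 CPM against 418, 362 and 304. *Meis2* carried most of the summed amacrine marker level of the precursors, which was 695, 1582 and 1174 CPM against 1557, 1050 and 745 CPM in the other kept cells. *Onecut1* and *Onecut2* were the higher ones of 4 horizontal markers. None of 5 microglia markers passed in either direction, 2 of 5 vascular and all 3 red blood cell markers were lower, and 5 of 8 genes of the response to dissociation were lower with none higher (summed level 408, 866 and 940 CPM against 932, 1391 and 1800). Of 5 astrocyte markers *Igf1r* was higher and *Pdgfra* lower, and of 4 pigment epithelium markers *Dct* was higher. Doublet calls marked 6, 10 and 10 precursors, 6.19%, 3.70% and 2.87%, below the 8.32%, 9.84% and 10.9% of all kept cells. They marked 1.52%, 2.97% and 3.63% of the *Prdm1*-negative and 5.71%, 8.70% and 14.4% of the *Nr2e3*-positive counterparts, described below. The 0-UMI conditions take out some mixed cells in advance, so these shares are no test of purity. The count of higher genes was 1396 without P0 and 451 without P3 replicate 1, and that of lower genes was 983 without P3 replicate 1.

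A second comparison asked what separates the precursors from cells that passed the same gate except that they had no *Prdm1* UMI. There were 979 such counterparts, 132 from P0, 337 and 42 from the P3 replicates and 468 from P6. The 3 tested comparisons use the same precursor sums, so their results are not independent of each other. By edgeR's quasi-likelihood test, 903 of 8467 genes were higher in the precursors (10.7% of those tested) and 1107 were lower (13.1%), 23.7% in all. Of 16 photoreceptor transcription factors 13 were higher and 1 was lower (median log2 fold change 0.96, against 0.02 over all genes). Of 15 shared photoreceptor genes 12 were higher and 1 was lower (0.86), of 6 cone genes 3 were higher (0.86), and of 10 photoreceptor synapse genes 8 were higher (0.79), with none lower on the last 2 lists. Of 6 rod genes 1 was higher, *Nrl*, and 1 was lower.

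The levels show the size of these differences. *Crx* stood at 357, 476 and 534 CPM in the precursors and 115, 235 and 226 CPM in the *Prdm1*-negative counterparts, a log2 fold change of 1.21 ± 0.11 (adjusted p = 2.7e-07 by edgeR's quasi-likelihood test). *Nrl* stood at 93.3, 243 and 223 CPM in the counterparts (1.08 ± 0.11). *Neurod4* stood at 262, 1235 and 656 CPM in them (1.43 ± 0.12), and *Neurod1* was higher in the precursors by 1.32 ± 0.09. *Crx*, *Nrl* and *Neurod4* were higher in the precursors of each of the 3 libraries. Across libraries the groups overlapped for *Neurod4*, whose level in the P0 precursors, given above, was below the 1235 CPM of the P3 replicate 1 counterparts. Among effector genes *Rom1* (0.86 ± 0.10) and *Prom1* (0.94 ± 0.15), proteins of outer segment discs, *Gngt2* (0.93 ± 0.06), *Snap25* (1.02 ± 0.10) and *Mak* (1.56 ± 0.17), a kinase of photoreceptor cilia, were higher in the precursors of all 3 libraries. *Fabp7* (1.47 ± 0.11), *Inhbb* (1.58 ± 0.18), *Meis2* (0.92 ± 0.14), *Onecut1* (1.68 ± 0.35) and *Rspo2*, a secreted activator of Wnt signalling (1.72 ± 0.45), were also higher. *Rspo2* was not past the threshold with DESeq2 (adjusted p = 0.15), and with cells thinned to 2000 UMIs in the same 3 libraries *Onecut1* fell to 0.73 and *Rspo2* to 0.44, neither past it (edgeR adjusted p = 0.19 and 0.60).

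Lower in the precursors were all 14 progenitor and Notch genes tested (median -2.26), 12 of 13 cell cycle genes (-1.64), 5 of 6 Müller glia markers and 5 of 7 dissociation genes. *Hes5*, a Notch effector, differed by a log2 fold change of -2.94 ± 0.13, *Ccnd1* by -2.65 ± 0.18, *Id2*, an inhibitor of bHLH factors, by -3.40 ± 0.30, and *Rlbp1* by -2.84 ± 0.23, the last not past the threshold with DESeq2 (-1.90, adjusted p = 0.37). Of 8 bipolar genes 2 were higher and 3 lower, and of 11 early neurogenic genes 4 were higher and 4 lower. The counterparts also held RNA of other cells, with summed red blood cell markers at 3455 CPM at P6 and summed microglia markers at 393 CPM in P3 replicate 1, against 3.69 and 3.70 CPM in the precursors of those libraries. The part of these cells in the result was not tested.

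Few genes separated *Prdm1*-positive from *Prdm1*-negative cells past the threshold when all cells also had a *Crx* UMI. With that added condition on both sides, edgeR's quasi-likelihood test called 0 of 6507 genes higher and 5 lower, with 550 genes (8.45%) at an unadjusted p under 0.05, 251 higher and 299 lower. DESeq2 called 0, with 48 genes at an unadjusted p under 0.05. The 5 lower genes, named after their values were seen, were *Rp1*, *Nnat*, *Ptn*, *Crym* and *Hist1h1b*. *Nrl* differed by a log2 fold change of 0.08, *Snap25* by 0.08 and *Neurod4* by 0.45, none past the threshold, and 3 genes changed sign, *Gngt2* at -0.071, *Prom1* at -0.067 and *Rom1* at -0.0074. Fewer genes and fewer cells entered this fit. The counts without the condition were 430 higher and 658 lower without P3 replicate 1 and 514 higher without P6.

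The third comparison set the precursors beside cells that met the same gate except for 1 or more *Nr2e3* UMIs and any count of *Cnga1*. There were 2629, 140 from P0, 770 and 53 from the P3 replicates and 1666 from P6, and their median depth in the 3 tested libraries, 2701.5, 2471.5 and 2730 UMIs, was near that of the precursors. By edgeR's quasi-likelihood test 524 of 8366 genes were higher in the precursors (6.26% of those tested) and 607 were lower (7.26%), 13.5% in all. These counts moved with the libraries. They were 9 higher and 29 lower without P3 replicate 1, 6 and 29 without P6, and 1209 and 1252 without P0, each with 2 libraries in the fit. Of the 30 genes given for this comparison, 14 kept their call when either P3 replicate 1 or P6 was left out, namely *Sag*, *Gngt1*, *Pde6b*, *Cngb1*, *Rp1*, *Pdc*, *Rom1*, *Nrl*, *Samd7*, *Samd11*, *Neurod4*, *Onecut2*, *Btbd17* and *Fabp7*.

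All 9 rod genes tested were lower in the precursors (median log2 fold change -4.17, against 0.0032 over all genes), as were 16 of 17 shared photoreceptor genes (-1.79). The gate split the groups on *Nr2e3* and barred *Cnga1* in the precursors only, so lower rod genes follow in part from it. *Sag* stood at 15.1, 21.0 and 53.6 CPM against 557, 1267 and 1727 (-5.27 ± 0.18, adjusted p = 2.6e-08 by edgeR's quasi-likelihood test), and *Gngt1* at 21.2, 21.0 and 34.2 against 150, 917 and 1317 (-5.07 ± 0.26). No library of the precursors reached the lowest value of the counterparts for these 2 genes. *Rp1*, a microtubule protein of the outer segment, differed by -4.89 ± 0.32, *Pde6b*, the rod phosphodiesterase subunit, by -4.17 ± 0.18, *Cngb1*, the rod channel subunit, by -4.17 ± 0.23, and *Pdc*, phosducin, by -3.94 ± 0.24. Differences were smaller for *Rom1* (-1.79 ± 0.11) and *Prom1* (-1.35 ± 0.15). The 1 shared photoreceptor gene that was higher in the precursors was *Abca4* (1.25 ± 0.14), at 148, 307 and 266 CPM against 94.6, 121 and 111.

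The upstream factors were less uniform. *Nrl* stood at 275, 453 and 477 CPM in the precursors against 832, 1299 and 1451 (-1.52 ± 0.11), and *Samd7* and *Samd11*, chromatin repressors of rods, differed by -2.15 ± 0.16 and -2.70 ± 0.13. *Crx* (-0.34 ± 0.11, adjusted p = 0.069) and *Neurod1* (-0.02 ± 0.09, adjusted p = 0.95) did not pass edgeR's quasi-likelihood test, and *Crx* was lower in the precursors of all 3 libraries. *Rorb*, a nuclear receptor upstream of *Nrl*, was higher in the precursors (0.74 ± 0.11, adjusted p = 0.0014 by the same test). Of 18 photoreceptor transcription factors 7 were lower and 1 was higher.

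Higher in the precursors were 5 of 10 early neurogenic genes, with 1 lower (median 0.74). *Neurod4* stood at 1088, 2450 and 1890 CPM against 370, 832 and 512 (1.73 ± 0.11, adjusted p = 2.1e-06 by edgeR's quasi-likelihood test). *Atoh7*, a proneural factor of early retinal neurons, was higher by 1.94 ± 0.34 and *Hes6*, a Hes family member of newborn neurons, by 0.95 ± 0.12, while *Insm1* was lower (-0.73 ± 0.12). *Fabp7* was higher by 1.52 ± 0.11. Of 10 cytoskeleton and axon genes 3 were higher and 1 was lower, with *Robo2*, an axon guidance receptor, at 1.47 ± 0.18 and *Tubb3*, neuronal tubulin, at 1.59 ± 0.34, higher in 2 of 3 libraries and not past the threshold with DESeq2 (1.43, adjusted p = 0.44). Among the largest folds were *Vxn* (2.41 ± 0.30) and *Bhlhe22* (2.06 ± 0.26), both neuronal differentiation genes, *Sphkap*, an anchoring protein of protein kinase A (2.35 ± 0.25), and *Btbd17* (2.13 ± 0.14). *Onecut2*, a factor of early-born retinal neurons, stood at 193, 160 and 158 CPM against 62.3, 46.3 and 40.8 (1.88 ± 0.13). Of the genes that passed, the early neurogenic ones were thus mostly higher than in the cells with *Nr2e3* and the rod genes were lower, as the plot of folds by gene shows.

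**Figure D3:**
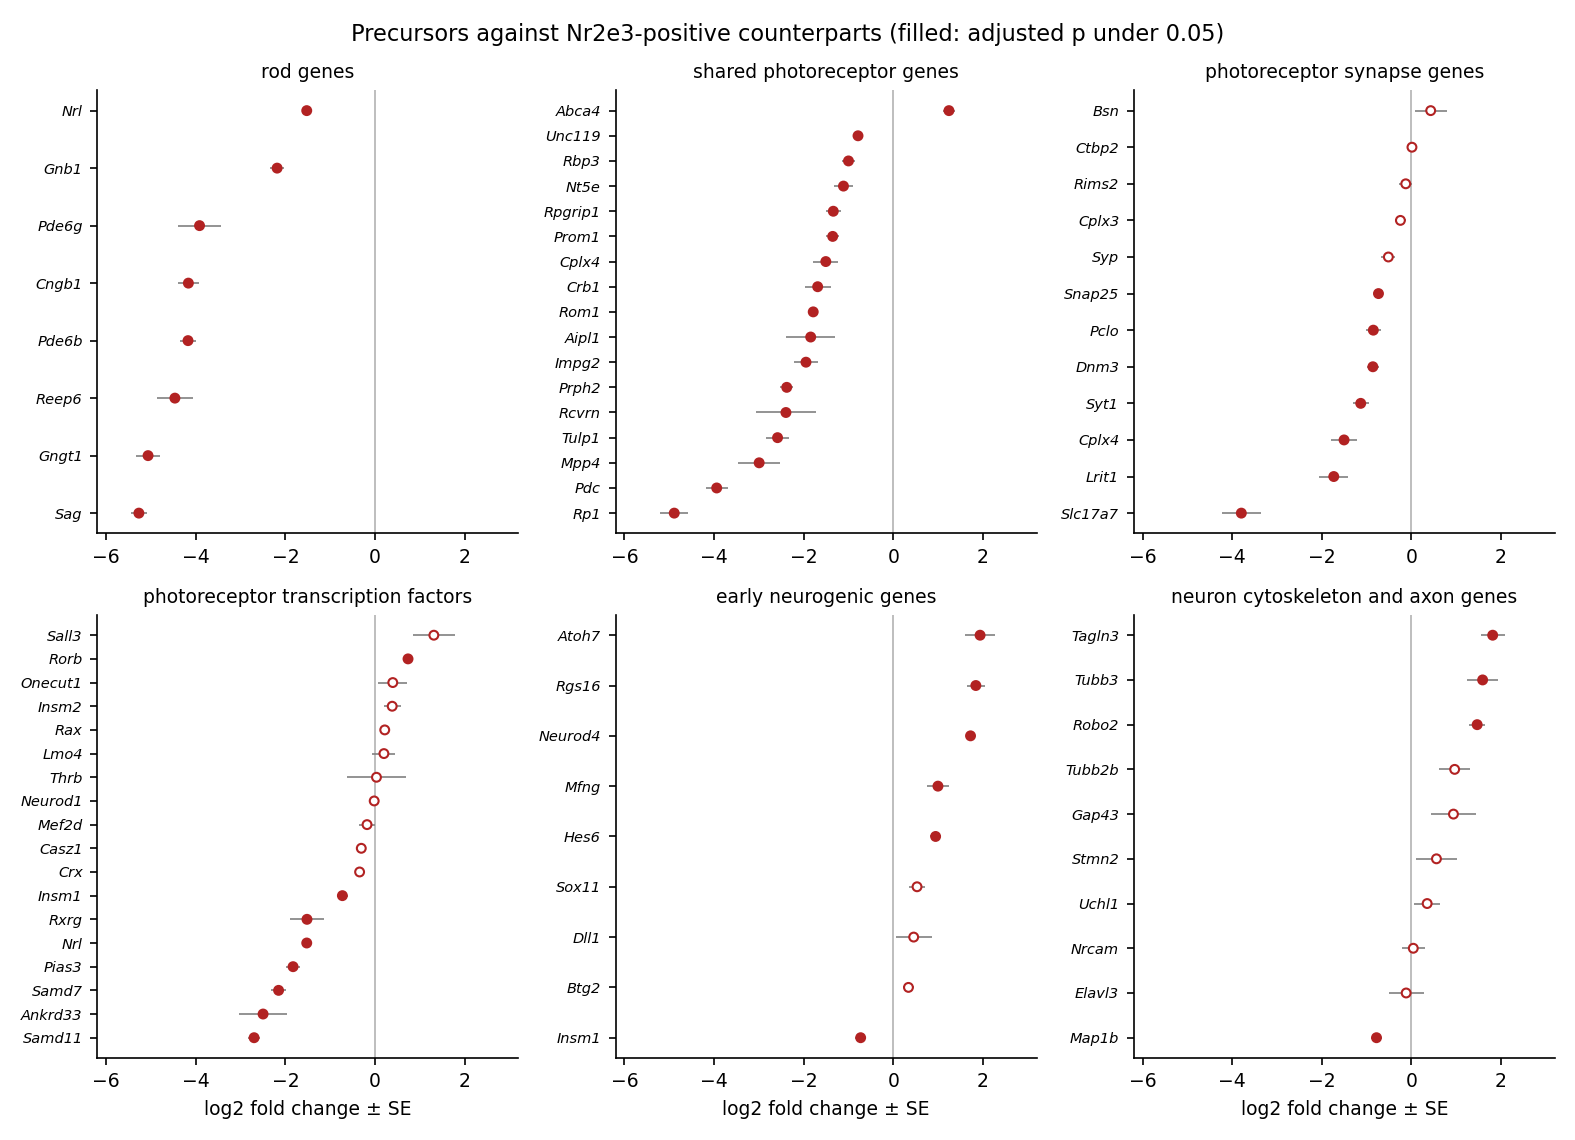
Log2 fold change of genes of 6 lists in the precursors against *Nr2e3*-positive counterparts of the same libraries, with bars of 1 SE and filled points for an adjusted p under 0.05 (edgeR). Rod genes lie left of 0, down to *Sag* at -5.27, and *Neurod4* at 1.73 and *Atoh7* at 1.94 lie right of it.

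Other lists were mixed in how they differed from the *Nr2e3*-positive cells. None of 10 cell cycle genes passed in either direction (median -0.20), and of 12 progenitor and Notch genes 1 was higher and none lower (median 0.12). Of 9 bipolar genes 2 were higher and 2 lower, with *Lhx4* higher by 1.80 ± 0.18, at 157, 160 and 253 CPM against 88.1, 49.4 and 58.4. Of 7 cone genes 3 were lower, with *Gngt2* at -0.59 ± 0.09 and *Opn1sw*, the short-wavelength cone opsin, at -1.22 ± 0.28. Of 12 photoreceptor synapse genes 7 were lower, among them *Slc17a7*, the vesicular glutamate transporter of photoreceptors (-3.80 ± 0.44), and none was higher. *Meis2* was higher in 2 of 3 libraries (0.70 ± 0.20), past the threshold by edgeR's quasi-likelihood test and not by DESeq2. *Slc17a7*, lower in all 3 libraries, also passed with the first tool alone. None of 6 Müller glia, 2 ganglion and 1 vascular markers tested passed, and no microglia or red blood cell marker had enough counts to be tested.

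The study described early, intermediate and late groups of *Crx*-positive cells in retinas of the first postnatal week, a set that joined its own P3 and P6 cells with published ones and held no P0 cells. The lists thus come in part from the samples tested here, so counts over the genes of those groups are not independent evidence of a stage. Against the *Prdm1*-negative counterparts, 15 of 15 late group genes were higher in the precursors, 8 of 14 intermediate genes were higher and 1 lower, and 11 of 13 early genes were lower. Against the *Nr2e3*-positive counterparts, 12 of 15 late group genes were lower and 1 was higher, *Tmem158*, 10 of 14 intermediate genes were higher and none lower, and 2 of 11 early genes were higher, *Hes6* and *Cd24a*. Against all other kept cells 8 of 15 late genes were higher, with none lower, and so were 5 of 14 intermediate genes, with 1 lower, while 11 of 13 early genes were lower. Most genes of the late group were thus lower than in the cells with *Nr2e3*, and all were higher than in the cells without *Prdm1*. The last did not hold when all cells compared had a *Crx* UMI, as the cells of the study's groups were *Crx*-positive. With that condition edgeR called 0 of 6507 genes higher than in the *Prdm1*-negative cells, and *Gngt2*, *Prom1* and *Rom1* of the late group changed sign.

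The precursors were not uniform, and how they stood against the other kept cells differed between libraries. Of 235 listed genes, 28 were higher than in the other kept cells in 1 of the 3 libraries and lower in another, by exact Poisson intervals that did not overlap. These 28 were among the 211 listed genes tested (13.3%), and over all 13893 genes tested the same held for 201 (1.45%). For *Rom1*, 1 of the 28, the precursors held 369, 556 and 553 CPM and the other kept cells 50.6, 331 and 750 CPM. A reversal can thus come from a change in either group of cells. The lists were chosen with earlier results known and were not matched to the other genes in level, on which the width of an interval depends. *Thrb*, the thyroid hormone receptor of cones, stood at 233 CPM in the precursors at P0 and at 8.63 and 2.77 CPM in P3 replicate 1 and P6, against 15.6, 16.1 and 18.8 CPM in the other kept cells. *Opn1sw* stood at 293, 16.0 and 8.31 CPM against 35.0, 71.4 and 58.7. *Isl1*, a gene of bipolar, amacrine and ganglion cells, had the reverse pattern, with no UMI in precursors at P0 or in P3 replicate 1 and 117 CPM at P6, against 96.7, 9.66 and 35.3 CPM in the other kept cells. The difference between ages was not tested.

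At P0, 33 of 97 precursors had a *Thrb* UMI (34.0%, exact Clopper-Pearson 95% interval 24.7 to 44.3), against 6.92% of amacrine cells. The split was made after the values by library were seen and is a description within 1 library. Precursors with *Thrb* had *Opn1sw* in 54.5%, *Rxrg* in 42.4% and *Cngb3* in 57.6%, and those without it in 10.9%, 14.1% and 28.1%. The amacrine shares were 2.62% for *Opn1sw* and 10.8% for *Rxrg*. *Nrl* was in 18.2% of precursors with *Thrb* and 53.1% of those without, *Rom1* in 24.2% and 62.5%, *Neurod4* in 39.4% and 84.4%, *Hes6* in 45.5% and 76.6%, and *Atoh7* in 0 of 33 (which allows a share of up to 10.6% by the same exact interval) and 18.8%. *Crx* (66.7% and 67.2%) and *Gngt2* (93.9% and 93.8%) were at like shares in both. The median depths were 3141 and 3282.5 UMIs, and after thinning the shares were 32.1% and 8.77% for *Opn1sw*, 28.6% and 82.5% for *Neurod4* and 10.7% and 43.9% for *Nrl*. After thinning, the exact intervals of the 2 sides lay apart for *Neurod4* (13.2 to 48.7% with *Thrb* and 70.1 to 91.3% without) and for *Nrl* (2.27 to 28.2% and 30.7 to 57.6%). They overlapped for *Opn1sw* (15.9 to 52.4% and 2.91 to 19.3%), *Rxrg* and *Cngb3*. No test of the differences was run, and 3 cells on each side were called doublets. *Thrb* was in 4 of 270 precursors of P3 replicate 1 and 2 of 348 at P6.

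**Figure D4:**
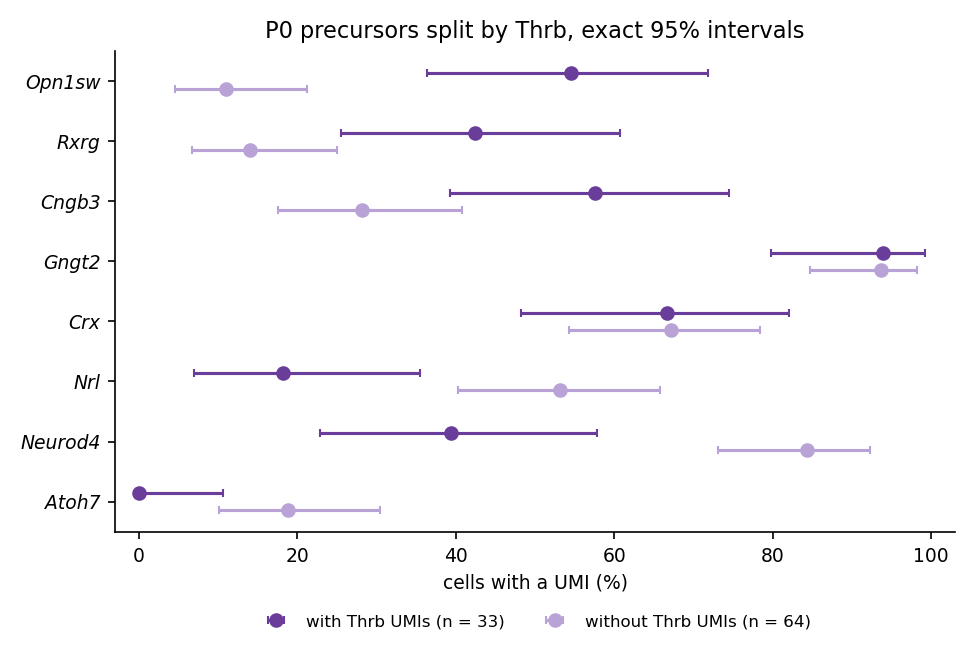
Share of P0 precursors (percent) with a UMI of each gene, split by *Thrb*, with exact 95% intervals. *Opn1sw* and *Rxrg* have higher shares with *Thrb* (54.5% and 42.4%) than without (10.9% and 14.1%), *Nrl* has a lower one (18.2% against 53.1%), and *Gngt2* is alike in both (93.9% and 93.8%).

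At P6 some precursors carried genes of bipolar cells. *Isl1* was detected in 7.18% of P6 precursors, 4.02% of amacrine cells and 1.14% of *Nr2e3*-positive counterparts. *Bhlhe23*, a factor of ON bipolar cells, was in 6.03%, 1.01% and 0.720%, and *Grm6*, their glutamate receptor, in 4.60%, 0.503% and 0.600%. In precursors thinned to 2000 UMIs the shares were 6.64% for *Isl1*, 3.65% for *Bhlhe23* and 3.32% for *Grm6*, against 1.61% for *Isl1* and 0 of 186 thinned amacrine cells for the other two. The exact Clopper-Pearson 95% intervals overlapped for each gene, as 1.60 to 6.02% in precursors and 0 to 1.96% in amacrine cells for *Grm6*. The thinned *Prdm1*-negative counterparts had 7.22%, 3.35% and 2.58%, so that cells with bipolar genes were present on both sides of the *Prdm1* gate at P6. *Grm6* and *Bhlhe23* had no UMI in the precursors of P0 or P3 replicate 1, and *Trpm1*, the channel of mature ON bipolar cells, had none in the 3 libraries. Because a *Prdm1* UMI was in 12.9% of thinned amacrine cells at P6, a cell with bipolar genes that makes *Prdm1* RNA and one that took up a free *Prdm1* molecule cannot be told apart. The part in these shares of the 10 P6 precursors called doublets was not tested.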

How the data were processed

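Single-cell 3′ RNA-seq of dissociated neonatal mouse retina was analysed from the UMI counts the authors deposited, 1 matrix of counts per gene and cell barcode for each library, not normalized. The submitters' processing notes name mm10. The headers of E14, P0, P3 replicate 1 and P6 name Cell Ranger 6.1.2, and for E16 and P3 replicate 2 the version is not given in the sources used here. Their annotation differs (32285 and 27998 identifiers), so levels use the 27040 identifiers that both share. No column outside the labelled samples was present.

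Kept barcodes had 300 to 6000 genes and no more than 15% of UMIs from mitochondrial genes. The study kept cells with fewer than 4000 genes, which was run as an alternative. The members and gene lists were chosen with earlier results of these data known. Named genes are the gate genes, the listed genes and the 10 largest folds in each direction with the same sign in every fitted library (3, since P3 replicate 2 had under 20 precursors) and at least 20 CPM where higher. Doublets were called from 2 simulated doublets a cell (30 neighbours, 30 components, 2000 variable genes, 0.8% per 1000 cells), marked 866, 1211, 78 and 1480 cells of P0, P3 replicate 1, P3 replicate 2 and P6, and were not removed, except in an alternative. The authors used scatter gates against doublets.

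Counts were summed per library and group of cells. The 6 sums of a comparison were fitted with edgeR 4.0.16 (R 4.3.3; TMM, filterByExpr, two-sided quasi-likelihood test, Benjamini-Hochberg, threshold 0.05). The library was a block because both sums of a library come from the same retinas; the deviations of paired sums from their group means correlated at 0.208 to 0.425. Cells are not replicates, and a p-value measures only the spread between libraries, which are of different ages. A fold change is on the log2 scale of CPM. Levels are CPM of summed counts with exact Poisson intervals, and shares of cells have exact Clopper-Pearson intervals at 95%. Alternatives were DESeq2 1.42.0, other scaling and filters, no block, leaving out each library, and narrower gates, among them a *Crx* UMI in all cells compared. Adding P3 replicate 2, the *Crx* gate with DESeq2 and thinned cells of the same 3 libraries were chosen after seeing the data. The fitting step was tested on simulated data. Values of some listed genes, which the counts of their lists include, are not reported here. Gene positions and identifiers are from GENCODE vM21 (GRCm38), in which *Prdm1* (ENSMUSG00000038151) lies at chr10:44437177-44528501, *Otx2* at chr14:48657677-48673819, *Crx* at chr7:15865947-15879968 and *Nr2e3* at chr9:59942771-59960659.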

Additional observations from a re-analysis of the deposited data

Results flagged for a closer look

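Of 235 listed genes, 28 were higher in the precursors than in the other kept cells in 1 of P0, P3 replicate 1 and P6 and lower in another, by exact Poisson intervals of the summed counts that did not overlap (13.3% of the 211 listed genes tested, against 1.45% of all 13893 genes tested); 22 were higher at P0 and lower at P6, and 6 were the reverse, among them *Cd24a*, *Isl1*, *Tagln3*, *Tubb2b* and *Tubb3*. With 1 library at P0 and at P6, the difference between ages was not tested. Such a reversal can come from a change in the precursors or in the other kept cells. *Thrb*, the cone thyroid hormone receptor, was at 233 CPM in the precursors at P0 and below the other kept cells later, and *Opn1sw*, the short-wavelength cone opsin, at 293 CPM at P0 and below them later. *Isl1* was at 117 CPM at P6 against 35.3 CPM in the other kept cells, and had no UMI in the precursors of P0 or P3 replicate 1.

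The 2 prenatal libraries were outside the gate as defined. The same UMI conditions were met by 232 of 15553 kept cells at E14 (1.49%) and 27 of 2714 at E16 (0.995%). At E14 *Thrb* was in 74.1% of the 232 cells, *Gngt2* in 69.0%, *Neurod4* in 67.2% and *Crx* in 59.1%. At E16, *Thrb* was in 59.3% of the 27 cells and in 52.3% of amacrine cells, and *Crx* in 51.9% and 57.0%, with medians of 8410 and 25497 UMIs a cell.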

How the results depend on the processing

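The share of kept cells that were precursors (P0, the P3 replicates, P6) was 1.56%, 2.64%, 1.38% and 2.86% with each cell at 2000 UMIs, and 0.528%, 1.03%, 0.0642% and 1.10% where 2 or more *Prdm1* UMIs were asked for. Averaging each cell's own CPM put *Crx* at 594.1 and *Nrl* at 573.2 CPM at P6, both above the interval of the summed level; of 705 levels so computed, 33 were above and 41 below their interval.

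Counts of genes higher and lower in the precursors are given here as pairs. Without the library block that pairs the sums they were 496 and 1014 against all other kept cells, 229 and 384 against the *Prdm1*-negative and 138 and 284 against the *Nr2e3*-positive counterparts. Thinning, which brought P3 replicate 2 in with 43 precursors, gave 489 and 1079 against all other cells and 286 and 461 against *Prdm1*-negative cells; with the same 3 libraries, a fit added after seeing the data, those against *Prdm1*-negative cells were 407 and 581 and those against all other cells were within 1.5 times the counts reported. DESeq2 gave 221 and 404 against *Prdm1*-negative and 141 and 214 against *Nr2e3*-positive cells. With a *Crx* UMI in all cells compared, edgeR gave 308 and 537 against all other cells and 0 and 5 against *Prdm1*-negative cells (550 genes at an unadjusted p under 0.05), and DESeq2 gave 177 and 231, 0 and 0 (48 genes at an unadjusted p under 0.05), and 141 and 179 in the 3 comparisons. Asking for 2 *Prdm1* UMIs gave 344 and 319 against *Nr2e3*-positive cells. P3 replicate 2, added after seeing the data, gave 456 higher against all other cells and 272 against *Nr2e3*-positive cells. Leaving out 1 library gave 451 to 1396 higher and 983 to 2197 lower, 430 to 935 and 658 to 1243, and 6 to 1209 and 29 to 1252 in the same order of comparisons.

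Folds of the named genes kept their direction and side of the threshold in 388 of 418, 216 of 259 and 400 of 444 alternatives. Those that changed sign did so with a *Crx* UMI in all cells: *Nrl* against all other cells was -0.20 with edgeR and -0.15 with DESeq2, and against *Prdm1*-negative cells *Gngt2* was -0.071 and -0.085, *Prom1* -0.067 and -0.12 and *Rom1* -0.0074 and -0.022. The fits with fewer libraries or cells test fewer genes on fewer counts; other causes were not tested. The 0-UMI conditions and the few precursors at P0 limit what low genes can show.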
